A study of Mus musculus with 4 samples.

Results

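The genes that build heparan sulfate (HS) and chondroitin sulfate (CS) chains, and those coding for the proteoglycan core proteins that carry them, were followed in RNA-seq libraries from the brain of a mouse model of mucopolysaccharidosis II (Hunter syndrome). The list held 60 genes, 43 for synthesis, sulfation and editing enzymes and 17 for core proteins, and was matched to the deposited table by Entrez identifier. A row was found for 55 of them, 39 enzymes and 16 core proteins, among 12700 genes in all. Chst3, Chst7, B3gat2, Hs3st4 and Vcan had no row and were not analysed here. The groups were C57BL/6 mice aged 9 months, Ids-/- (Ids-ko) or wild-type (wt) littermates, from which the cerebral cortex (Cx) or an area holding midbrain, diencephalon and hippocampus (M) was dissected. CxH and MH are the labels of the Ids-ko libraries, CxWT and MWT those of the wt libraries. Each label stands for 1 library, made from the pooled RNA of 7 mice, so that there was no biological replicate and a test between libraries compares those libraries, not the conditions. By the study's methods, both areas of a genotype came from the same brains.

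HS and CS are long sulfated sugar chains that are built in the Golgi on serines of a core protein. Both kinds of chain start from the same short linker. They are then polymerised by separate enzymes and sulfated at set positions, which decide what growth factors and receptors they bind. In brain they sit on cell surfaces as syndecans and glypicans and in the extracellular matrix as lecticans, among them the components of perineuronal nets. Iduronate 2-sulfatase, the product of Ids, removes a sulfate group from HS and dermatan sulfate in the lysosome, the opposite end of the life of these chains.

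Levels are given as RPM, reads scaled by the aligned reads of the library, and compared between genes only as RPKM, which also divides by transcript length. Ratios between libraries are log2 ratios of RPM, given ± a standard error that holds counting error alone. Calls of up or down required 2 things, a p-value under 0.05 in the Poisson likelihood ratio test of both libraries and a log2 ratio of 0.7 or more in either direction. The libraries held 16380080 to 23475080 reads on genes, and 3 reads corresponded to 0.0779 to 0.104 RPM. Ratios were also corrected for the GC content and length of the transcript. For members, the corrected ratio is named where the correction ended or made a call, beside the call or where base composition is described. For genes of the other lists no corrected ratio is given. The 95% intervals are exact Clopper-Pearson intervals and cover counting error only as well.

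The reads went against the genotype label in MH and MWT, and against the area label in CxWT and MH. Ids had 135 RPM in CxH and 354 in CxWT, with 368 in MH and 155 in MWT, so that it was low in an Ids-ko and a wt library and high in the other Ids-ko and the other wt library. All 15 listed markers of cortical excitatory neurons had a row, and they summed to 2599 RPM in CxH and 438 in CxWT, with 2261 in MH and 345 in MWT. The 16 midbrain and diencephalon markers with a row, of 21 listed, summed to 31.5, 535, 43.0 and 457 RPM. Slc6a4, En1 and Hcrt had no more than 3 reads in CxH and in MH, and Gata3, Oxt and Avp in CxH. The libraries are therefore named by their labels only, and which genotype and which area a ratio stands for cannot be told apart here. All 6 pairs of libraries are given, the 4 comparisons of the study and the pairs CxH vs. MWT and MH vs. CxWT. In bulk RNA, fewer cells of a type and less RNA per cell cannot be told apart either.

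Promoter sequences are shown for Hs3st2, the member with the widest span of uncorrected levels, Gpc3, the widest of those called down, and Hpse, the only member called in opposite directions in MH vs. MWT and CxH vs. CxWT. The sequences are the 250 bases before the annotated start in RefSeq (GRCm38.p6), 5' to 3' on the strand of the gene, with GC boxes (GGGCGG or its reverse complement CCGCCC) in capitals. They lie at chr7:121392046-121392295 (plus strand) for Hs3st2, at chrX:52613975-52614224 (minus strand) for Gpc3 and at chr5:100719717-100719966 (minus strand) for Hpse.
Hs3st2: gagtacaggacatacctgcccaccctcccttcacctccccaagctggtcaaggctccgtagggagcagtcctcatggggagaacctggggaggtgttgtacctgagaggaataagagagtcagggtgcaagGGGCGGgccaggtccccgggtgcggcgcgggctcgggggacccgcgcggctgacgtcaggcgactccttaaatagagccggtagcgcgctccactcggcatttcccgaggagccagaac
Gpc3: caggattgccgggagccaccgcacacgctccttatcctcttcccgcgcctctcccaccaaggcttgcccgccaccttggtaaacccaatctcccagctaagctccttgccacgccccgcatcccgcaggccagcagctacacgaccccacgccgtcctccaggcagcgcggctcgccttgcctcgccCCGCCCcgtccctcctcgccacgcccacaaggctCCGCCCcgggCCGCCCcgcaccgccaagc
Hpse: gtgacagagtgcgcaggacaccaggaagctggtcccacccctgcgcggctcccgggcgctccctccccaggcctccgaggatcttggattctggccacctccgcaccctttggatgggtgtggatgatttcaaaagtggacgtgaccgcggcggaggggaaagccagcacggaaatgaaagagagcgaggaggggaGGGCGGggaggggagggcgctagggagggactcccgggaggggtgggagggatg
Gpc3 held 3 GC boxes in this window, and Hs3st2 and Hpse 1 each. The GC content of the windows was 64.8% for Hs3st2, 71.6% for Gpc3 and 66.8% for Hpse. A GC box was found in 62.7% of 51 windows from 43 members with an entry, and in 32.7% of 32851 windows of all genes. The windows of members were also richer in GC, with a median of 64.8% and 17 CpG against 52.4% and 6 in all windows, and the part of this in the share with a GC box was not tested. The E-box CACGTG, searched on both strands, was in none of the 3 windows shown, in 5.88% of the windows of members and in 6.02% of all windows. These matches describe the sequence only.

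Among the members as among all genes, more calls were made where a library rich in cortical markers was set against a library rich in midbrain markers than between libraries with similar area markers. In CxH vs. CxWT, 10 of 55 members (18.2%) were called up, against 9.46% of all genes, and 5 (9.09%) were called down, against 11.5%. In MH vs. MWT, 10 members (18.2%) were up and 4 (7.27%) down, where all genes gave 12.3% and 12.7%. In CxH vs. MWT, 16 (29.1%) were up and 3 (5.45%) down, beside 15.6% and 15.1% of all genes, and in MH vs. CxWT 7 (12.7%) were up and 4 (7.27%) down, beside 6.41% and 8.89%. The share of members called up thus exceeded that of all genes in these 4 pairs. The share called down lay below it, but in each of these pairs at least 1 alternative put it above. With TMM factors 9.09% of members were down in CxH vs. CxWT, against 8.94% of all genes, and 7.27% in MH vs. CxWT, against 6.73%. After the correction for GC content and length, the share called up was 10.9% of members in MH vs. MWT, against 9.17% of all genes, and 14.5% in CxH vs. MWT, against 8.46%. The share called down was then 9.09% against 8.99% in MH vs. MWT and 9.09% against 7.87% in CxH vs. MWT. With 55 members, 1 gene is 1.82% of the list.

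In CxH vs. MH, both rich in cortical markers, the only call was Hpse, up (1.82% of members, against 2.43% of all genes called up), and no member was called down, against 1.06% of all genes. Without the size threshold, 27 members were up and 11 down in this pair at an unadjusted p-value under 0.05, and edgeR's exact test with an assumed variation of 0.2 likewise called 1 up and 0 down. In CxWT vs. MWT, 4 members (7.27%) were up and 2 (3.64%) down, against 5.43% and 2.11% of all genes. The median size of the log2 ratio over the 55 members was 0.22 for CxH vs. MH and 0.34 for CxWT vs. MWT. It was 0.33 in CxH vs. CxWT, 0.42 in MH vs. MWT, 0.55 in CxH vs. MWT, while MH vs. CxWT gave 0.29.

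Enzymes and core proteins were also counted apart. Of the 39 enzymes, 8 were up and 2 down in CxH vs. CxWT as well as in MH vs. MWT (20.5% up and 5.13% down in each), with median log2 ratios of 0.09 and 0.13. Of the 16 core proteins, 2 were up and 3 down in CxH vs. CxWT (12.5% and 18.8%) with a median of -0.13, and 2 were up and 2 down in MH vs. MWT (12.5% each) with a median of 0.21. All genes had 9.46% up and 11.5% down with a median of -0.09 in CxH vs. CxWT, and 12.3% up and 12.7% down with a median of -0.07 in MH vs. MWT. The summed RPM of the enzymes was 1959 in CxH and 1597 in CxWT, with 1727 in MH and 1370 in MWT, and that of the core proteins was 1572, 1549, 1483 and 1257. Of these enzymes, Chst1, Chst2 and Chst10, counted apart from the HS and CS roles, summed to 459, 305, 403 and 240 RPM. B3gat1, better known for the HNK-1 epitope, had 211, 129, 175 and 113 RPM. Chst1, Chst2 and B3gat1 were among the enzymes called up in CxH vs. CxWT, and Chst1 and Chst2 in MH vs. MWT. The enzyme sum is therefore not one of HS and CS genes alone. After correction of the ratios for GC content and transcript length, the medians became 0.15 and 0.05 for the enzymes, and -0.24 and -0.30 for the core proteins, so that the core proteins changed sign in MH vs. MWT.

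Calls in the same direction in MH vs. MWT and CxH vs. CxWT numbered 6 members up (10.9% of members, against 6.23% of all genes) and 3 down (5.45%, against 6.46%). The 6 up were Ext1, Extl1, Hs3st2, Chst1, Chst2 and Ncan, and the 3 down were Hs6st2, Sdc2 and Gpc3. After the correction, 5 were up in both, since Chst2 was no longer called in MH vs. MWT, and the 3 down in both were Hs6st2, Gpc3 and Acan, with Sdc2 called in neither. Hpse alone was up in CxH vs. CxWT and down in MH vs. MWT (1.82% of members, against 0.433% of all genes). No member was down in the first and up in the second, against 0.11% of all genes, under the Poisson test as under every alternative, edgeR's exact test included, though 4 members had such opposite signs at an unadjusted p-value under 0.05 alone. At that p-value alone, 2 members, Hpse included, were up in the first and down in the second. After the correction, 0 members were down then up and 7 were up then down. Of these 2 comparisons, CxH vs. CxWT alone had B3gat1, Chst15 and Gpc4 past the threshold as up and Ndst4 and Acan as down, and MH vs. MWT alone had Hs6st3, Xylt1, Chsy3 and Cspg5 as up. Whether the ratios of such a gene differ between the 2 comparisons was not tested.

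**Figure D1:**
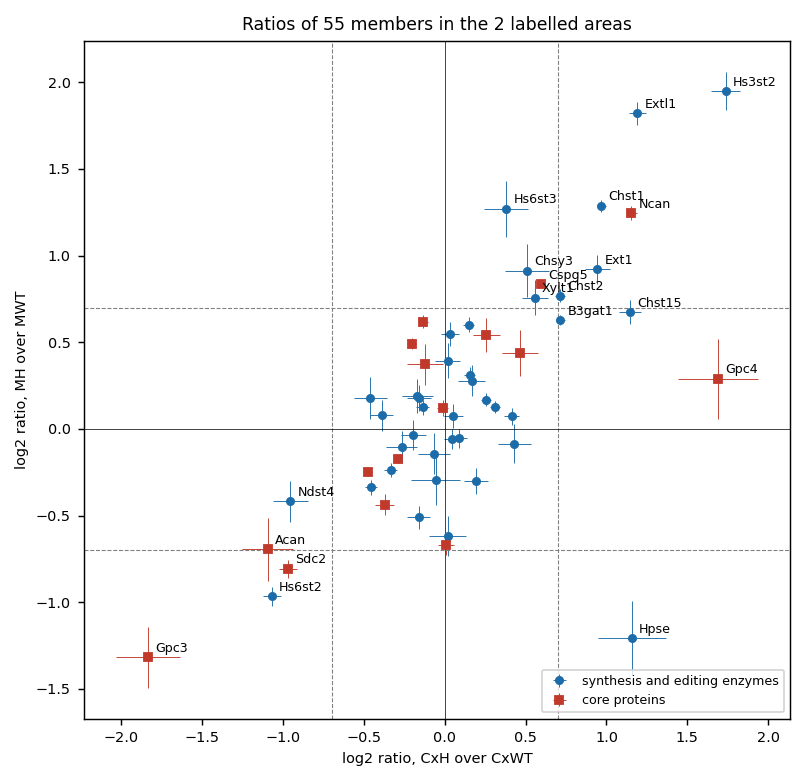
Log2 ratio of CxH over CxWT (x axis) against log2 ratio of MH over MWT (y axis) for the 55 members, with enzymes as blue circles and core proteins as red squares. Bars are counting standard errors, dashed lines mark the log2 threshold of 0.7, and Hpse is the only member past the threshold in opposite directions (1.16 and -1.21).

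The enzymes of the linker are described first. Xylt1 and Xylt2 add the xylose that starts every chain. Xylt1 had 22.7 RPM in CxH and 15.4 in CxWT, with 17.99 in MH and 10.6 in MWT, and gave a called ratio of 0.76 ± 0.10 in MH vs. MWT (0.25 and uncalled after the correction) and an uncalled one of 0.56 ± 0.08 in CxH vs. CxWT. Xylt2 had 19.3, 25.3, 16.5 and 15.6 RPM, was highest in CxWT and was called up in CxWT vs. MWT only, at 0.70 ± 0.08, which became 0.13 after the correction. So Xylt1 was highest where cortical markers were high, while Xylt2 was not. B3gat3, which adds the glucuronic acid that completes the linker, had the highest RPKM of this role, at 76.3 in CxH and 64.0 in CxWT, with 56.2 in MH and 50.02 in MWT, and was not called in any pair. B3gat1, better known for making the HNK-1 carbohydrate epitope of neural glycoproteins, had 211, 129, 175 and 113 RPM. Its ratio was just past the threshold in CxH vs. CxWT (0.71 ± 0.03, or 0.56 after the correction) and short of it in MH vs. MWT (0.63 ± 0.03). B4galt7 and B3galt6, the galactosyltransferases of the linker, were called in none of the 6 pairs.

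HS chains are polymerised by the Ext1 and Ext2 complex, and both of its subunits were measured. Ext1 had 28.8 RPM in CxH and 15.0 in CxWT, with 27.2 in MH and 14.4 in MWT. It was thus about the same in CxH and MH, and close to 2-fold lower in both other libraries, with called ratios of 0.94 ± 0.08 in CxH vs. CxWT and 0.92 ± 0.08 in MH vs. MWT. Its partner Ext2 had 32.1, 31.0, 28.7 and 27.3 RPM, and its ratios in the same comparisons were 0.05 ± 0.06 and 0.07 ± 0.07. Extl1, an Ext-like glycosyltransferase, had 68.8, 30.1, 67.4 and 19.1 RPM, with ratios of 1.19 ± 0.05 and 1.82 ± 0.07. These were larger than the ratios of Ext1, but after the correction Ext1 had the larger one in CxH vs. CxWT (1.24 against 1.003) and Extl1 in MH vs. MWT (1.37 against 1.04). Extl3, which starts the HS chain on the linker, and Extl2 were not called in any pair, and they had the highest RPKM of this role (Extl2 22.2, 28.0, 25.4 and 30.0, Extl3 23.9, 19.3, 17.8 and 16.3). Extl1 made up 21.5% of the summed RPKM of the 5 Ext and Extl genes in CxH and 10.9% in CxWT, with 22.4% in MH and 7.43% in MWT.

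The 11 genes that modify the HS chain held both Hs3st2, which had the widest spread of uncorrected levels, and members that moved the other way. Hs3st2, a 3-O-sulfotransferase gene on chromosome 7 from 128535373 to 128645282 (NCBI37/mm9), had 32.4 RPM in CxH (95% interval 30.7 to 34.3) and 9.73 in CxWT (8.70 to 10.8), with 26.6 in MH (24.9 to 28.3) and 6.87 in MWT (5.95 to 7.90). The intervals of all 4 libraries were separate. Its ratio was 1.74 ± 0.09 in CxH vs. CxWT, 1.95 ± 0.11 in MH vs. MWT and 2.24 ± 0.11 in CxH vs. MWT, and the 4.72-fold span between its highest and lowest library was the widest of all 55 members. After the correction its ratio in CxH vs. MWT was 1.62, and Gpc4 (1.74) and Gpc3 (-1.67) had larger ratios than that in CxH vs. CxWT. Hs3st2 was uncalled in CxWT vs. MWT (0.50 ± 0.13) and CxH vs. MH (0.29 ± 0.06). Hs3st1, the other 3-O-sulfotransferase member with a row, had 11.3, 11.9, 9.05 and 9.98 RPM and was called in no pair. Hs3st2 therefore held 68.0% of the summed RPKM of this pair of genes in CxH and 68.6% in MH, but 37.8% in CxWT and 33.8% in MWT.

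Members of the 6-O-sulfotransferase family were called in opposite directions. Hs6st2, which lies on the X chromosome as Ids does, had 27.3 RPM in CxH and 57.4 in CxWT, with 31.8 in MH and 62.2 in MWT, and gave ratios of -1.07 ± 0.06 in CxH vs. CxWT and -0.97 ± 0.05 in MH vs. MWT. Hs6st3 had 7.51, 5.77, 8.75 and 3.63 RPM and was called up in MH vs. MWT at 1.27 ± 0.16, while CxH vs. CxWT gave 0.38 ± 0.13. Hs6st1, with the highest RPKM of the family in CxH, CxWT and MH, was uncalled in every pair (0.05 ± 0.05 and -0.06 ± 0.06 in the same comparisons). Hs6st2 thus made up 24.8% and 30.0% of the summed RPKM of the family in CxH and MH, but 43.1% and 50.7% in CxWT and MWT.

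Of the N-deacetylase/N-sulfotransferases, which open the way for all later sulfation of HS, Ndst4 alone was called. It had 7.09 RPM in CxH and 13.7 in CxWT, with 7.63 in MH and 10.2 in MWT, and a ratio of -0.95 ± 0.11 in CxH vs. CxWT, which the correction moved to -0.66 and out of the calls. In MH vs. MWT it had the same sign without a call (-0.42 ± 0.12). It was also called down in MH vs. CxWT (-0.85 ± 0.11), where the correction ended the call at -0.699. Ndst1 had the highest RPKM of the 11 HS-modifying genes in CxH, CxWT and MH (15.3, 13.8 and 12.8) and lay below Hs6st2 and Hs6st1 in MWT (10.3), and its ratios of 0.15 ± 0.04 and 0.31 ± 0.04 were not called. Ndst2, Ndst3, the epimerase gene Glce and Hs2st1, whose product adds the 2-O-sulfate that iduronate 2-sulfatase later removes, were called in no pair. Hs2st1 differed by no more than 1.12-fold between any 2 libraries, with 40.1, 37.8, 40.9 and 42.5 RPM.

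**Figure D2:**
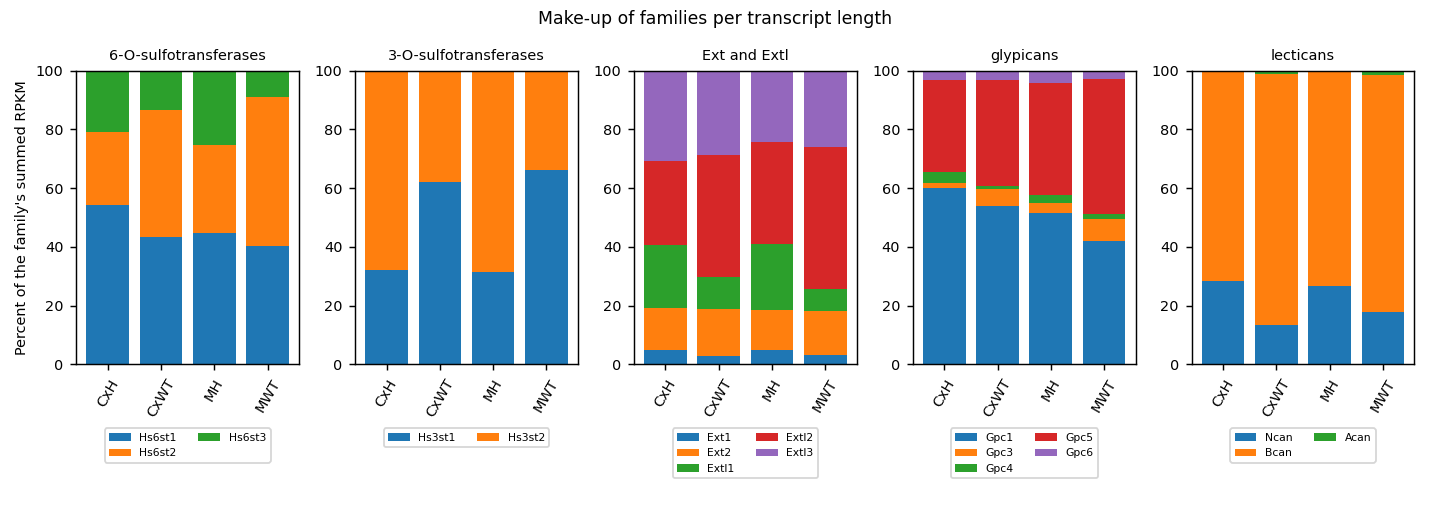
Share of each gene in the summed RPKM of the members of its family with a row (y axis, percent) in the 4 libraries as labelled (x axis) for 5 families. Hs3st2, Extl1, Hs6st3 and Ncan take larger shares in CxH and MH, and Hs6st2 and Gpc3 larger shares in CxWT and MWT.

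Among the genes that edit finished HS chains, Hpse followed an order of libraries that no other member shared as a call. Hpse codes for heparanase, the endoglycosidase that cuts HS chains in lysosomes and in the matrix, and lies on chromosome 5 from 101108503 to 101148735. It had 166 reads or 4.31 RPM in CxH (95% interval 3.68 to 5.02) and 65 reads or 1.93 RPM in CxWT (1.49 to 2.46), with 71 reads or 1.90 RPM in MH (1.48 to 2.40) and 127 reads or 4.39 RPM in MWT (3.66 to 5.22). CxH and MWT overlapped, as did CxWT and MH, and the intervals of the first pair lay above those of the second. The ratio was 1.16 ± 0.21 in CxH vs. CxWT, -1.21 ± 0.21 in MH vs. MWT, 1.18 ± 0.20 for CxH vs. MH and -1.18 ± 0.22 for CxWT vs. MWT. In the pairs left, MH vs. CxWT and CxH vs. MWT, it was -0.03 ± 0.25 and -0.03 ± 0.17. Hpse was high in the 2 libraries in which Ids was low, and low where Ids was high.

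The summed markers of microglia were also higher in CxH and MWT, though not every gene of the list was. All 12 had a row and reads in every library, and they summed to 719 RPM in CxH and 375 in CxWT, with 432 in MH and 601 in MWT. Of these 12 genes, 8 were called up in CxH vs. CxWT, 4 down in MH vs. MWT, 7 up in CxH vs. MH and 6 down in CxWT vs. MWT. Of all genes, 9.46%, 12.7%, 2.43% and 2.11% were called in these directions. In MH vs. MWT 8 of the 12 had a ratio below 0 and 4 above it, Cx3cr1 (0.02 ± 0.05), P2ry12 (0.04 ± 0.06), Csf1r (0.33 ± 0.04) and Tmem119 (0.48 ± 0.08), and Tmem119 was lowest in MWT. The summed markers of astrocytes (4167, 3264, 3402 and 4038 RPM in the order above) and of endothelial cells (278, 223, 237 and 278 RPM), 10 of 10 genes each, were higher in CxH and MWT as well, but their genes went both ways. Of the 10 astrocyte genes, 5 had a ratio above 0 and 5 below it in CxH vs. CxWT, with 2 called up and 2 down, and 3 were above and 7 below in MH vs. MWT, with 0 up and 4 down. All genes gave 9.46% up and 11.5% down in the first and 12.3% and 12.7% in the second. Of the 10 endothelial genes, 8 were above 0 in CxH vs. CxWT and 5 in MH vs. MWT. Gfap, an intermediate filament gene of astrocytes, had 603, 280, 253 and 555 RPM and was called in all 4 comparisons of the study in the same directions as Hpse, as no other astrocyte gene of the list was (1.11 ± 0.02, -1.13 ± 0.02, 1.25 ± 0.02 and -0.99 ± 0.02). These 4 genes and Gfap were chosen after their values were seen. The part of these cell types in the Hpse result was not tested. Sulf1 and Sulf2, which code for extracellular sulfatases that take 6-O-sulfate off HS, were called in no pair. Sulf2 was the higher of both per length (RPKM 14.4, 10.8, 10.9 and 10.4), with a ratio of 0.41 ± 0.05 in CxH vs. CxWT and 0.40 ± 0.04 in CxH vs. MH. Sulf1 had 21.9, 19.1, 20.4 and 25.1 RPM.

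**Figure D3:**
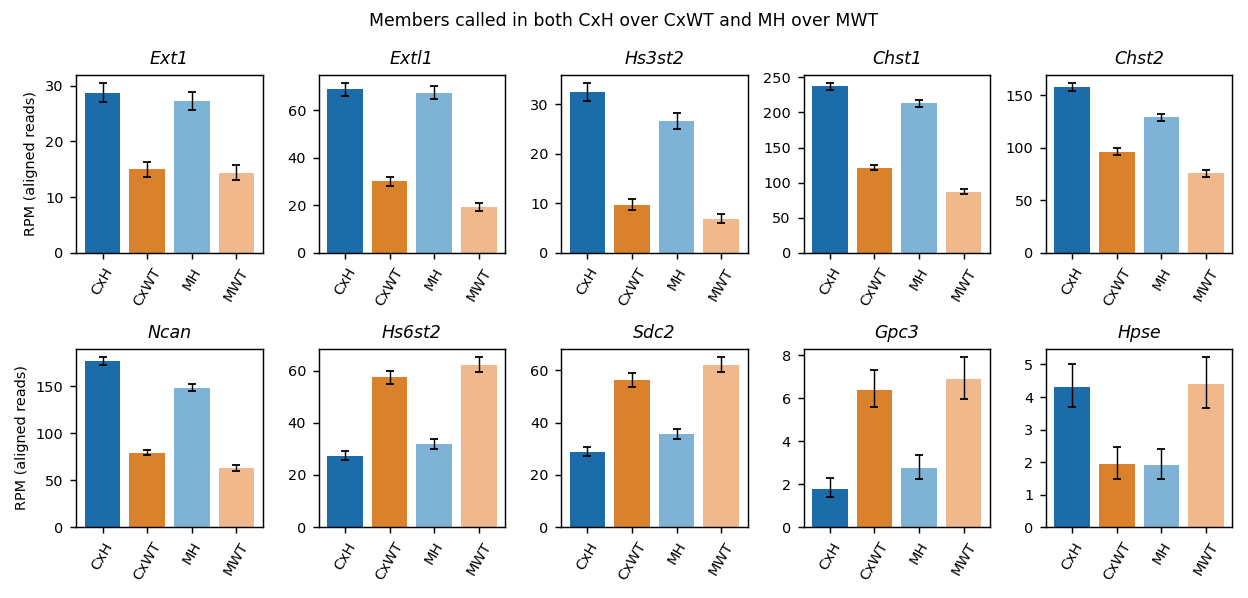
RPM (y axis, scaled by aligned reads) in the 4 libraries as labelled (x axis) for the 10 members called in both CxH vs. CxWT and MH vs. MWT, with 95% exact intervals of counting error as bars. In Hpse CxH and MWT are high (4.31 and 4.39 RPM), whereas the other 9 members set CxH and MH apart from CxWT and MWT.

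CS chains are polymerised by Chsy1, Chsy3, Chpf and Chpf2, and 2 of these genes were called. Chsy3 had 7.87 RPM in CxH and 5.53 in CxWT, with 8.003 in MH and 4.25 in MWT and was up in MH vs. MWT at 0.91 ± 0.15 (0.61 and uncalled after the correction), with 0.51 ± 0.13 in CxH vs. CxWT. Chpf had 102, 92.5, 81.8 and 53.9 RPM and was up in CxWT vs. MWT at 0.78 ± 0.04 and in CxH vs. MWT at 0.93 ± 0.04. Its level was lowest in MWT, but after the correction these ratios were 0.01 and -0.16, and that of MH vs. MWT was -0.25, so that MWT was no longer low. Chpf was also the highest of the CS chain genes per length, with RPKM of 31.7, 28.7, 25.4 and 16.7, and made up 66.7% to 72.9% of the summed RPKM of the 4 polymerase genes. Chsy1, Chpf2 and the N-acetylgalactosaminyltransferase genes Csgalnact1 and Csgalnact2 were not called in any pair.

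Of the 5 measured genes that sulfate or epimerise CS, Chst15 had the clearest difference. Chst15, whose product adds a second sulfate to 4-sulfated N-acetylgalactosamine and so makes the highly sulfated CS-E unit, had 40.9 RPM in CxH and 18.5 in CxWT, with 33.3 in MH and 20.9 in MWT. Its ratio of 1.15 ± 0.07 in CxH vs. CxWT was called and that of 0.67 ± 0.07 in MH vs. MWT fell just short. Chst12, a 4-O-sulfotransferase gene, had 20.6, 20.3, 15.4 and 11.7 RPM and was up in CxWT vs. MWT at 0.80 ± 0.10, or 0.52 and uncalled after the correction. Its homologue Chst11 had the highest RPKM of this role (13.5, 14.8, 14.6 and 13.4) and the smallest span of all members, 1.11-fold. Ust and Dse, which act on uronic acids, were called in no pair, and Dse had 5.09 to 6.53 RPM.

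Chst1 and Chst2, which sulfate galactose and N-acetylglucosamine of keratan sulfate and other glycans, were up in both comparisons of Ids-ko vs. wt labels. Chst1 had 237 RPM in CxH and 121 in CxWT, with 213 in MH and 87.3 in MWT, and gave ratios of 0.97 ± 0.03 and 1.29 ± 0.03, and the highest RPKM of any enzyme in CxH and MH (88.4 and 79.4). Chst2 had 157, 96.0, 129 and 75.6 RPM, with ratios of 0.71 ± 0.03 and 0.77 ± 0.04, close to the threshold, and the second became 0.60 after the correction. Chst10, the HNK-1 sulfotransferase gene, had 64.3, 88.2, 61.5 and 77.7 RPM and negative uncalled ratios of -0.46 ± 0.04 and -0.34 ± 0.04, the sign opposite to that of B3gat1, which acts before it on the same epitope.

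Of the core proteins, syndecans are membrane-spanning and glypicans are held by a lipid anchor. Sdc2 was down in both comparisons, with 28.7 RPM in CxH and 56.2 in CxWT, with 35.5 in MH and 62.0 in MWT and ratios of -0.97 ± 0.05 and -0.81 ± 0.05. Neither call stayed after the correction, where the ratios were -0.57 and -0.41. Sdc3, the neuronal syndecan with the highest RPKM of the family (48.0, 58.7, 41.3 and 46.6), and Sdc4 were uncalled in all pairs. After the correction Sdc3 was called down in MH vs. MWT, where its ratio went from -0.17 to -0.77, and in CxH vs. MWT, from 0.04 to -0.72. Sdc4 had 45.0, 44.7, 32.4 and 51.7 RPM and a ratio of -0.67 ± 0.06 in MH vs. MWT, just short of the threshold.

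Gpc3 and Gpc4, which are neighbours on the X chromosome, were called in opposite directions in CxH vs. CxWT, CxH vs. MWT and MH vs. CxWT. Gpc3, from 49625603 to 49967127, had 69 reads or 1.79 RPM in CxH (95% interval 1.39 to 2.27) and 215 reads or 6.40 RPM in CxWT (5.57 to 7.31), with 103 reads or 2.76 RPM in MH (2.25 to 3.34) and 199 reads or 6.87 RPM in MWT (5.95 to 7.90). It was high in CxWT and MWT, whose intervals overlapped, and its ratios were -1.84 ± 0.20 in CxH vs. CxWT and -1.32 ± 0.18 in MH vs. MWT. Gpc4, from 49406198 to 49518429, a glypican that astrocytes release and that promotes synapse formation, had 159 reads or 4.13 RPM in CxH (3.51 to 4.82) and 43 reads or 1.28 RPM in CxWT (0.926 to 1.72), with 101 reads or 2.70 RPM in MH (2.20 to 3.28) and 64 reads or 2.21 RPM in MWT (1.70 to 2.82). CxH was its highest library and CxWT its lowest, and MWT overlapped with both MH and CxWT. Gpc4 was called in CxH vs. CxWT (1.69 ± 0.25), CxWT vs. MWT (-0.79 ± 0.28), CxH vs. MWT (0.90 ± 0.21) and MH vs. CxWT (1.08 ± 0.26), but not in MH vs. MWT (0.29 ± 0.23) or CxH vs. MH (0.61 ± 0.18). Both genes were minor glypicans, since Gpc1 and Gpc5 together held most of the summed RPKM of the 5 glypicans. Gpc1 took 59.9% in CxH and 53.8% in CxWT, with 51.6% in MH and 42.0% in MWT, and Gpc5 took 31.5%, 36.2%, 38.2% and 45.8%, without a call for either in any pair, though the correction moved Gpc5 from -0.50 to a call at -0.70 in CxH vs. MWT. Gpc6 was likewise not called.

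The basement membrane proteoglycans agrin (Agrn) and perlecan (Hspg2) were called in none of the 4 comparisons of the study. Agrn had the higher RPKM (17.0 in CxH and 18.7 in CxWT, with 18.1 in MH and 11.8 in MWT) and was lowest in MWT, with uncalled ratios of 0.62 ± 0.04 in MH vs. MWT and 0.66 ± 0.04 in CxWT vs. MWT. After the correction these were 0.03 and 0.15, and Agrn had -0.19 in CxH vs. MWT, so that MWT was not low any more. Hspg2 had 11.4, 8.27, 8.70 and 6.43 RPM and was up only in CxH vs. MWT, at 0.83 ± 0.13, a ratio that became -0.27 after the correction for GC content and length.

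Lecticans bind hyaluronan and fill the matrix between brain cells. Neurocan (Ncan) had 176 RPM in CxH and 79.3 in CxWT, with 148 in MH and 62.6 in MWT, and was up in both comparisons at 1.15 ± 0.03 and 1.24 ± 0.04. Of the 3 lecticans with a row, which leave out Vcan, brevican (Bcan) was the main one in all libraries, with 71.0% to 85.5% of their summed RPKM. It had 200, 230, 183 and 130 RPM, was not called in either comparison of Ids-ko vs. wt labels (-0.20 ± 0.02 and 0.49 ± 0.03) and was up in CxWT vs. MWT at 0.82 ± 0.03, or 0.20 and uncalled after the correction. The share of Ncan was 28.4% in CxH and 26.7% in MH but 13.4% in CxWT and 17.7% in MWT. Aggrecan (Acan), the lectican typical of perineuronal nets, had 127 reads or 3.30 RPM in CxH and 237 reads or 7.05 RPM in CxWT, with 114 reads or 3.05 RPM in MH and 143 reads or 4.94 RPM in MWT. It was down in CxH vs. CxWT at -1.10 ± 0.16, and its ratio of -0.695 ± 0.18 in MH vs. MWT was just short of the threshold. After the correction it was called down in MH vs. MWT (-1.11) as well as in CxH vs. CxWT (-1.22), and in CxH vs. MWT its ratio went from -0.58 to a call at -1.08. The 6 genes listed as parvalbumin interneuron markers, all with a row, summed to 628, 1007, 632 and 1046 RPM. Gad1, Gad2 and Kcnc1 made up most of this sum, so that it is not read as a level of such cells. In CxH vs. CxWT 1 of the 6 was called down, Gad2 (-1.22 ± 0.03), and 1 up, Lhx6 (0.72 ± 0.10), and in MH vs. MWT 3 were down and 0 up. All genes gave 11.5% down and 9.46% up in the first and 12.7% and 12.3% in the second. Gad1, Gad2, Kcnc1 and Lhx6 were chosen after their values were seen, and the part of parvalbumin cells in the Acan ratios was not tested.

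Of the 3 membrane-bound CS proteoglycan genes, Cspg5 and Ptprz1 had far higher levels per length than Cspg4. Neuroglycan C (Cspg5) had the highest RPKM of all 55 members in CxH, MH and MWT, at 102, 94.1 and 52.7, and was second to Bcan in CxWT, at 67.8 against 70.4. Its 396, 262, 364 and 204 RPM gave a called ratio of 0.84 ± 0.02 in MH vs. MWT (0.50 and uncalled after the correction) and an uncalled one of 0.59 ± 0.02 in CxH vs. CxWT. Ptprz1, the receptor phosphatase whose secreted form is phosphacan, had 193, 267, 238 and 283 RPM (RPKM 23.9, 33.2, 29.5 and 35.1). Cspg4 (NG2), a marker of oligodendrocyte precursors and pericytes, had 17.8, 14.9, 16.6 and 11.4 RPM (RPKM 2.22, 1.85, 2.06 and 1.42). Neither was called in any pair.

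In all, 32 of the 55 members, 23 enzymes and 9 core proteins, were called in none of the 4 comparisons of the study (58.2%, against 65.1% of all genes), and their highest library exceeded the lowest by 1.11-fold to 1.78-fold with a median of 1.40-fold. The remaining 16 enzymes and 7 core proteins were those named above with a call in these 4, while Hspg2 was called in CxH vs. MWT alone. No member fell to 3 reads or fewer in any library. The highest library was CxH for 23 members, MWT for 14, CxWT for 12 and MH for 6. Besides the area markers, mature oligodendrocyte markers (10 of 10 with a row) differed between the same libraries as the calls shared by CxH vs. CxWT and MH vs. MWT, at 5062 RPM in CxH and 9593 in CxWT, with 5272 in MH and 7744 in MWT. Choroid plexus markers (6 of 6) summed to 579, 135, 630 and 258 RPM. Their median log2 ratio was 1.35 in CxH vs. CxWT, with all 6 above 0, and 0.80 in MH vs. MWT, with 5 above 0 and 1 below. Markers of oligodendrocyte precursors (5 of 6) summed to 216, 276, 191 and 208 RPM, and those of pericytes and meningeal fibroblasts (9 of 10) to 213, 174, 184 and 165. The part of any of these in the ratios of the members was not tested.

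**Figure D4:**
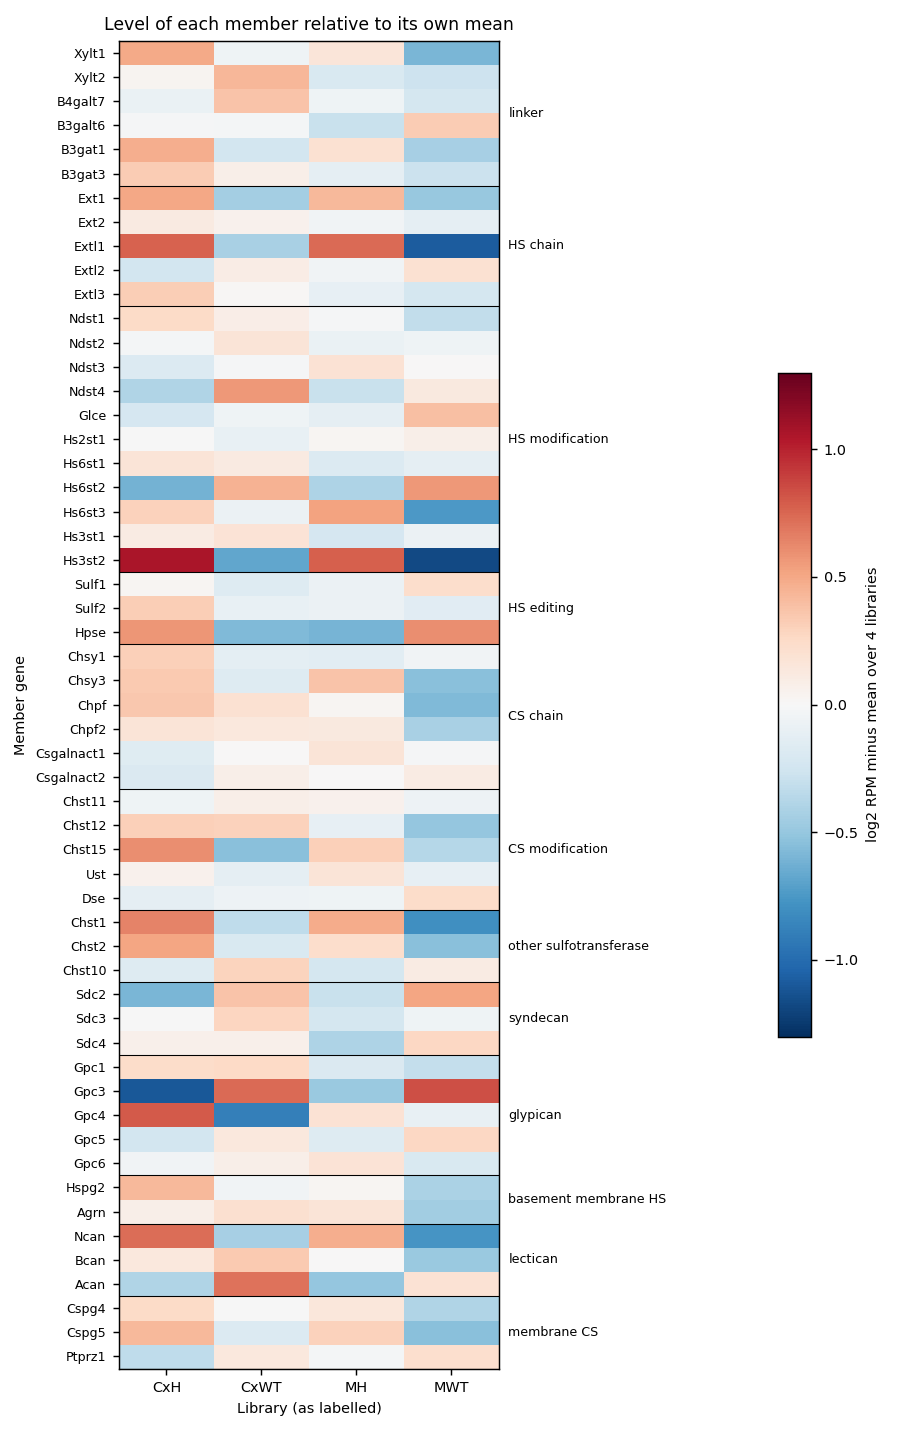
Log2 RPM of each of the 55 members (rows, ordered by role) minus its mean over the 4 libraries as labelled (columns). Most strong colours pair CxH with MH and CxWT with MWT, as in Hs3st2 and Gpc3, while Hpse pairs CxH with MWT.

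The ratios also followed base composition. Over 10725 genes, the log2 ratio rose with the GC content of the transcript, with a Spearman coefficient, as a description across genes, of 0.46 in CxH vs. CxWT, 0.49 in MH vs. MWT, 0.58 in CxH vs. MH, 0.63 in CxWT vs. MWT, 0.69 in CxH vs. MWT but 0.16 in MH vs. CxWT. The members had a median GC content of 53.6%, and all genes 50.7%. The 4 members called up in CxWT vs. MWT, Xylt2, Chpf, Chst12 and Bcan, had 56.6% to 63.7%, and none of them stayed called there after the correction for GC content and length. Hpse and Gpc4 kept their calls in that pair. Over the 6 pairs 22 of 66 calls were lost and 5 gained, those of Acan and Sdc3 in MH vs. MWT and of Acan, Sdc3 and Gpc5 in CxH vs. MWT. In CxH vs. CxWT the calls of B3gat1, Ndst4 and Sdc2 were lost, and in MH vs. MWT those of Chst2, Chsy3, Cspg5, Sdc2 and Xylt1. In CxH vs. MWT those of B3gat1 (0.39), Chpf (-0.16), Chst12 (0.38), Chsy3 (0.41) and Cspg5 (0.48) were lost. Hs6st3 (0.49), Hspg2 (-0.27), Sdc2 (-0.52) and Xylt1 (0.37) lost theirs there too, and Ndst4 (-0.699) in MH vs. CxWT. Calls of Ext1, Extl1, Hs3st2, Chst1, Ncan, Hs6st2, Gpc3 and Hpse in CxH vs. CxWT and MH vs. MWT stayed after the correction.

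**Figure D5:**
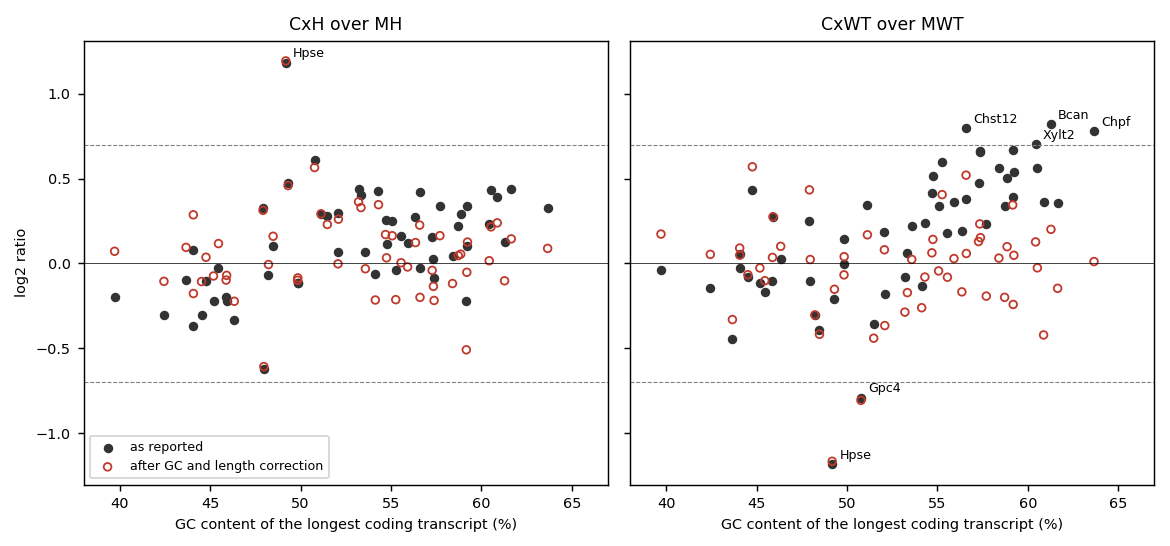
Log2 ratio of the 55 members (y axis) against the GC content of their longest coding transcript in percent (x axis), for CxH over MH (left) and CxWT over MWT (right). Filled points are the ratios as given and open circles the ratios after correction, dashed lines mark 0.7, and the 4 members above 0.7 on the right fall to between 0.01 and 0.52.

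Other genes of the same chains were listed to see the wider pathway. The counts in these lists stand beside 9.46% of all genes called up and 11.5% down in CxH vs. CxWT, and 12.3% and 12.7% in MH vs. MWT, and nothing particular to a list is read from them. Of 6 further HS and CS enzymes with a row, 1 was up and 2 down in CxH vs. CxWT, and 0 up and 1 down in MH vs. MWT. Hs3st5, a 3-O-sulfotransferase gene like Hs3st2, was down in both, with 4.21 RPM in CxH and 7.97 in CxWT, with 3.67 in MH and 9.47 in MWT and ratios of -0.92 ± 0.14 and -1.37 ± 0.15. Dsel, an epimerase gene for dermatan sulfate, was down in CxH vs. CxWT (-0.91 ± 0.09), where Chst14, for a dermatan 4-O-sulfotransferase, was the gene called up (0.71 ± 0.23). Of 12 genes that supply sulfate and sugar nucleotides, none was up and 2 were down in each comparison. These were Impad1, a phosphatase gene of sulfate metabolism (-0.96 ± 0.05 and -0.72 ± 0.05), and Ugdh, whose product makes the UDP-glucuronic acid that both chains need (-0.71 ± 0.09 and -0.77 ± 0.09).

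Among 9 other proteoglycan core genes, 0 were up and 3 down in CxH vs. CxWT, and 1 was up and 1 down in MH vs. MWT. Spock3, for a testican, was down in both at -1.004 ± 0.04 and -1.03 ± 0.04. Col18a1 was down in CxH vs. CxWT (-1.18 ± 0.15) and up in CxWT vs. MWT (1.04 ± 0.16), so that CxWT was its high library, at 8.24 RPM against 3.64 in CxH, 3.83 in MH and 4.01 in MWT. Srgn, for the proteoglycan of secretory granules in blood-derived cells, was down in CxWT vs. MWT (-0.88 ± 0.12). Lum, a small leucine-rich proteoglycan gene, was down in CxH vs. MH (-0.95 ± 0.26) and in CxH vs. CxWT (-0.93 ± 0.26), and its relative Fmod was the gene up in MH vs. MWT (0.78 ± 0.10). Of 7 matrix partners of lecticans, Hapln2, a link protein gene of myelinated axons, was the only call in either comparison (-1.08 ± 0.07 in CxH vs. CxWT), while Tnr and Adamts4 were among the 6 without a call.

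The genes that degrade HS and CS in the lysosome, 15 of which had a row, gave 1 up and 1 down in CxH vs. CxWT and 1 up and 2 down in MH vs. MWT, Ids included. Gusb, the beta-glucuronidase gene, had 10.9 RPM in CxH and 6.96 in CxWT, with 6.34 in MH and 11.6 in MWT, and gave called ratios of -0.87 ± 0.12 in MH vs. MWT, 0.78 ± 0.12 for CxH vs. MH and -0.74 ± 0.12 for CxWT vs. MWT. Hexa, for a subunit of beta-hexosaminidase, had 67.2, 37.5, 35.6 and 51.9 RPM and called ratios of 0.84 ± 0.05 in CxH vs. CxWT and 0.92 ± 0.05 in CxH vs. MH. Gusb and Hexa were thus high in the same 2 libraries as Hpse. Hexa was uncalled in MH vs. MWT (-0.55 ± 0.05) and CxWT vs. MWT (-0.47 ± 0.06). Other genes of the list did not follow this order, and Arsb and Galns were highest in MH (132 and 6.05 RPM). Arsg, for an arylsulfatase that acts on HS, was the other gene down in MH vs. MWT (-0.81 ± 0.06). Ids itself was called in all 4 comparisons, at -1.39 ± 0.02 in CxH vs. CxWT, 1.24 ± 0.02 in MH vs. MWT, -1.44 ± 0.02 for CxH vs. MH and 1.19 ± 0.03 for CxWT vs. MWT.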

How the data were processed

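RNA from both dissected areas of the same 7 Ids-ko and 7 wt mice, pooled by genotype and area into 4 samples, was sequenced on a SOLiD instrument in a single run. The authors aligned the reads to NCBI37/mm9 with PASS, best hit with up to 2 mismatches and no gap, and deposited counts, the unnormalised reads aligned to a single gene, with a cut at 50% coverage of the gene. The gene annotation they used is not given in the sources used here.

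Members were matched by Entrez identifier. RPM were obtained from the totals of aligned reads that the study states, and a count of 0 was set to 1 in ratios. The Poisson likelihood ratio test and its thresholds are those of the study. Calls were made over all 12700 genes, and 12252 had a transcript length and GC content, from the longest coding transcript in GENCODE vM1 (same build). The correction was fitted on the 10725 of these with at least 100 reads in every library, and corrected calls cover the 12252 genes. The p-value of a corrected call came from the corrected ratio over its standard error under a normal distribution, not from the Poisson test. Whether reads were counted by strand is not given in the sources used here, so reads of overlapping genes cannot be told apart. Alternatives were DESeq2 size factors, TMM factors or column totals for scaling, a minimum of 100 reads, Benjamini-Hochberg adjusted p-values, a log2 threshold of 1, edgeR's exact test with an assumed variation of 0.2, 0.5 added to every count, and a correction for GC content and length.

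The members and lists were chosen with earlier results of these data known. Genes named by rule were Ids, members called in any of the 4 comparisons of the study, the member with the highest RPKM of each role, and genes of the pathway lists called between areas or with the largest ratios. All other members named, such as Chst10, Hs2st1, Sulf1, Sdc4, Ext2, Hs3st1, Hs6st1, Hspg2 and Dse, and a few genes of the pathway lists were named after their values were seen. Steps were tested on simulated data. The tools were R 4.3.3 with DESeq2 1.42.0 and edgeR 4.0.16, and Python 3.11.15 with scipy 1.17.1, pandas 2.3.3, matplotlib 3.10.9 and numpy 2.4.6.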

Additional observations from a re-analysis of the deposited data

Results flagged for a closer look

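Hpse was called in opposite directions in the 2 labelled areas, with log2 ratios of 1.16 in CxH vs. CxWT and -1.21 in MH vs. MWT, and in opposite directions between areas in the 2 labelled genotypes, with 1.18 for CxH vs. MH but -1.18 for CxWT vs. MWT. It was the only one of the 55 members to do so, and with 1 library per label the difference itself was not tested.

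Ids had the reverse pattern, at -1.39 in CxH vs. CxWT, 1.24 in MH vs. MWT, -1.44 for CxH vs. MH but 1.19 for CxWT vs. MWT, and this difference was not tested either. The low libraries of Ids, CxH and MWT, carry the labels of different genotypes.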

How the results depend on the processing

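Of 66 called ratios of members over the 6 pairs, none was lost with 0.5 added to every count, with adjusted p-values or with a minimum of 100 reads, 1 was lost with TMM factors and 1 with DESeq2 size factors (Xylt2 in CxWT vs. MWT in each), 5 with column totals, 12 with edgeR's exact test at a variation of 0.2 and 32 with a log2 threshold of 1. The GC and length correction ended 22 calls, of which 2 also turned sign, Chpf (-0.1608) and Hspg2 (-0.265) in CxH vs. MWT, and made 5 new ones. With the threshold of 1, members called up and down became 6 and 3 in CxH vs. CxWT, 5 and 2 in MH vs. MWT, 0 and 1 in CxWT vs. MWT and 3 and 2 in MH vs. CxWT, and 8 were up in CxH vs. MWT. All genes at this threshold gave 5.44% up and 5.59% down in CxH vs. CxWT, 6.84% and 6.09% in MH vs. MWT, 1.53% and 0.795% in CxWT vs. MWT and 3.91% and 4.46% in MH vs. CxWT, and 8.72% up in CxH vs. MWT. With the GC correction, 3 members (5.45%) were down in CxH vs. CxWT, 6 (10.9%) up in MH vs. MWT and 0 up in CxWT vs. MWT. In CxH vs. MWT 8 (14.5%) were up and 5 (9.09%) down. All genes then gave 8.06% down in CxH vs. CxWT, 9.17% up in MH vs. MWT and 1.34% up in CxWT vs. MWT. They gave 8.46% up and 7.87% down in CxH vs. MWT. Column totals left 2 members up in CxWT vs. MWT (3.64%, against 3.78% of all genes). The exact test left 1 up and 1 down there (1.82% each, against 2.83% and 1.01% of all genes). The members called up in both comparisons of Ids-ko vs. wt labels numbered 3 to 7 over the alternatives, those called down in both 1 to 4, and Hpse was the only opposite call in each.

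The median ratio of all genes moved by over 0.1 in CxH vs. MWT with column totals (-0.11) and in MH vs. CxWT with TMM factors (0.11), DESeq2 size factors (0.11) and the GC correction (0.10). Over all genes, calls up and down in CxWT vs. MWT went from 690 and 268 to 164 and 203 with the GC correction, and in CxH vs. MWT from 1980 and 1915 to 1036 and 964. No paired analysis was possible because each label has 1 library, and for the same reason none could be left out.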
